A study of Mus musculus with 4 samples.

Results

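Genes of cholesterol synthesis, cholesterol uptake and SREBP control were compared between wild-type and *Foxq1* cKO brain endothelial cells (brain ECs). A list of 37 such genes was matched by symbol to the deposited table, and 36 of them were found among its 12693 gene symbols. The 36 comprise 7 enzymes of the mevalonate steps, 11 enzymes of the sterol steps, 4 genes of SREBP control, 5 genes of uptake, transport and storage, 3 genes of the LXR arm and 6 genes of fatty acid synthesis. *Fdps*, which encodes farnesyl diphosphate synthase, was on the list and was not analysed here. All 36 genes reached a mean of 10 normalized counts, the minimum for testing, as did 12472 genes in all.

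RNA was read out by sequencing in 4 samples of brain ECs, 2 labelled WT and 2 labelled FOXQ1fl/fl;Tie2-Cre, all of strain C57BL/6 and taken on embryonic day 18. The cells came from the cerebral cortex and were sorted with an antibody against CD31, an endothelial surface protein. Tie2-Cre drives recombination in endothelial cells and is also known to act in blood cells, so the deletion need not be limited to brain ECs, and the controls were littermates without the Cre transgene. Neither whether those controls carried floxed alleles nor how many embryos went into a sample is stated in the sources used here, so the p-values below measure the spread between these samples only.

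Cholesterol is built from acetyl-CoA. The mevalonate steps make isoprenoid units, which also feed protein prenylation and coenzyme Q, and the sterol steps join them into squalene, close the rings and trim lanosterol to cholesterol. The transcription factors SREBP-1 and SREBP-2 are held in the endoplasmic reticulum together with SCAP and the INSIG proteins while sterols are plentiful. When sterols run low they travel to the Golgi, are cut free by proteases and switch on genes of synthesis and uptake. The liver X receptors (LXRs) respond to oxysterols and act in the opposite sense, raising efflux and limiting uptake. The brain makes nearly all of its own cholesterol because lipoproteins of the blood hardly cross the blood-brain barrier, and brain ECs are the cells that form this barrier.

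The samples held 15827166 to 21466436 reads on listed genes. *Foxq1*, the targeted gene, stood at 353 and 297 normalized counts (reads divided by a size factor per sample) in wild-type against 5.44 and 32.6 in *Foxq1* cKO samples, a log2 fold change of -4.47 (SE 1.04, limma, unadjusted p = 0.00507, adjusted p = 0.857). *Foxq1* was low in both samples labelled as deleted. Of its 4.84 kilobases of exon, 3200 bases overlap *A530084C06Rik* on the opposite strand, and since the strand setting of the counting is not given, reads of that gene may be included. Without variance moderation limma gave *Foxq1* an unadjusted p of 0.0649. In DESeq2 its unadjusted p was 2.35e-05 and its adjusted p 0.00854, and in edgeR these were 0.00764 and 0.940. Of 12 endothelial markers all were listed, with summed levels of 353628 to 381805 in wild-type and 305582 to 343846 in *Foxq1* cKO samples. Pericyte and smooth muscle markers were also present, 7 of 10 listed with sums of 152594 to 154802 and 145490.0 to 159999, while *Acta2*, *Myh11* and *Tagln* were not listed. Every listed gene had at least 1 read in each sample, so a gene that was not listed need not be unexpressed. Wild-type 1 stood farthest from the rest, with a mean correlation of log2 values with the other samples of 0.849 against 0.872 to 0.886 for the others, so results were also computed without it.

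The start regions of these genes were searched for sequence elements through which SREBP and its partners are known to work. RefSeq windows (GRCm38.p6) of 250 bases before to 50 bases after the annotated start were found for 30 of the 37 genes. No window was found for *Fdps*, *Fdft1*, *Sqle*, *Stard4*, *Npc1*, *Scd1* and *Scd2*. A motif was searched on both strands, and a gene counted as holding it if any of its windows did. The CCAAT box (CCAAT), bound by NF-Y, a partner of SREBP on sterol genes, was present in 24 of 30 genes (80%) against 41.1% of the 27025 genes with a window and 43.4% of those in the deposited table. It was found in all 9 sterol-step genes with a window and in 6 of 7 mevalonate-step genes. A sterol regulatory element (SRE, TCACNCCAC) was found in 1 of 30 genes, *Hmgcs1* (3.33% against 1.44% of all genes and 1.39% of those in the table). The E-box CACGTG, which SREBP-1 can also bind, was present in 5 genes (16.7% against 8.09% and 11.6%), and the forkhead core TGTTTA in 2, *Acaca* and *Pmvk* (6.67% against 15.1% and 10.3%). The study reports that FOXQ1 strongly prefers GTTTC at its sites in *Adck1* and *Hap1*. That string was not searched here, so the TGTTTA counts do not cover it.

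Windows of 4 genes are printed to show this range, 5′ to 3′ on the strand of the gene, with motif matches in capitals. *Hmgcs1* (chr13:119690101-119690400, plus strand) holds the SRE, its first base 137 bases before the start, and 4 CCAAT boxes written as ATTGG because they lie on the opposite strand. *Mvk* (chr5:114444019-114444318, plus strand) holds 5 CCAAT boxes. *Insig1* (chr5:28071162-28071461, plus strand) holds a CCAAT box and an E-box, whose first base lies 101 bases before the start. *Nr1h2* (chr7:44553916-44554215, minus strand), the member with the smallest unadjusted p in the expression comparison below, holds none of the 4 motifs searched.
Hmgcs1: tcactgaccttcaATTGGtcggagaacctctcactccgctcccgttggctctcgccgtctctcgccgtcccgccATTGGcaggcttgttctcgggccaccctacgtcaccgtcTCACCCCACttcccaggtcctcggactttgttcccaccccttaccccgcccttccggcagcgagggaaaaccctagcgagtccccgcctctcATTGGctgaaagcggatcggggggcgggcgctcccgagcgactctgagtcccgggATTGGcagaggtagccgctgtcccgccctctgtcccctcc
Mvk: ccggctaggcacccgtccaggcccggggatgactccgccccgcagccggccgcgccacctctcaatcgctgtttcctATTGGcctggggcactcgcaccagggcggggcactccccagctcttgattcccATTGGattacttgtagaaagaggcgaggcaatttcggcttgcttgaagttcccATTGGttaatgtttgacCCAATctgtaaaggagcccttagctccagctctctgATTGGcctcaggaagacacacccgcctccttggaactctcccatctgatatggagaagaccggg
Insig1: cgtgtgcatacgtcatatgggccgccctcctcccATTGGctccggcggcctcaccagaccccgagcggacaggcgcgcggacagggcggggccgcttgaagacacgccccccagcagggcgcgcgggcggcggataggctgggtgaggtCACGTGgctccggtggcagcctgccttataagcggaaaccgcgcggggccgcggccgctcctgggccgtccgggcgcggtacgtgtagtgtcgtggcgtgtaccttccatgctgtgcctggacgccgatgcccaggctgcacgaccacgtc
Nr1h2: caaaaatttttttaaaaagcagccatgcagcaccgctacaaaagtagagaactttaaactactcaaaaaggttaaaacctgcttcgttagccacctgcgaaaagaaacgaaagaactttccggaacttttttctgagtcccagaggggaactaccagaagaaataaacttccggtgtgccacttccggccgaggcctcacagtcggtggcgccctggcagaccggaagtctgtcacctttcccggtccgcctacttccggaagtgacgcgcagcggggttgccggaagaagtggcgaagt
A match describes letters in the window and not a bound site. Only exact matches to these letters were sought, so a missing match does not show that a gene lacks the element.

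The question put to the expression data was whether deletion of *Foxq1* shifted the cholesterol genes as a group or singly. No member passed Benjamini-Hochberg adjustment at 0.05 in limma, DESeq2 or edgeR, where the smallest adjusted p over the members was 0.857, 0.766 and 0.940. At an unadjusted p under 0.05, 0 of 36 members were called in limma, 1 in DESeq2 (*Scd1*) and 0 in edgeR. The background over all genes tested was 5.22% in limma, 6.49% in DESeq2 and 4.92% in edgeR. After adjustment the background was 0% in limma and edgeR and 0.465% in DESeq2. In these bulk samples a smaller share of cells and less RNA per cell cannot be told apart.

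As a group the members lay near 0. Their median log2 fold change was -0.054, against 0.0086 for all genes tested, with 21 members below 0 and 15 above 0 (49.3% of all genes lay below 0). Without wild-type 1, 27 of the 36 lay below 0, and without wild-type 2, 16 did. The *Foxq1* cKO values lay entirely outside the wild-type values for 14 members (38.9%), and this share was 36% over all genes. Of these 14, 5 were higher in both *Foxq1* cKO samples (*Sc5d*, *Npc2*, *Mylip*, *Scd1* and *Acss2*) and 9 were lower (*Lss*, *Tm7sf2*, *Nsdhl*, *Scap*, *Stard4*, *Npc1*, *Soat1*, *Nr1h2* and *Acaca*), where the background was 18% in each direction. The 22 other members overlapped, as the plot of the 36 genes in each sample shows.

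**Figure D1:**
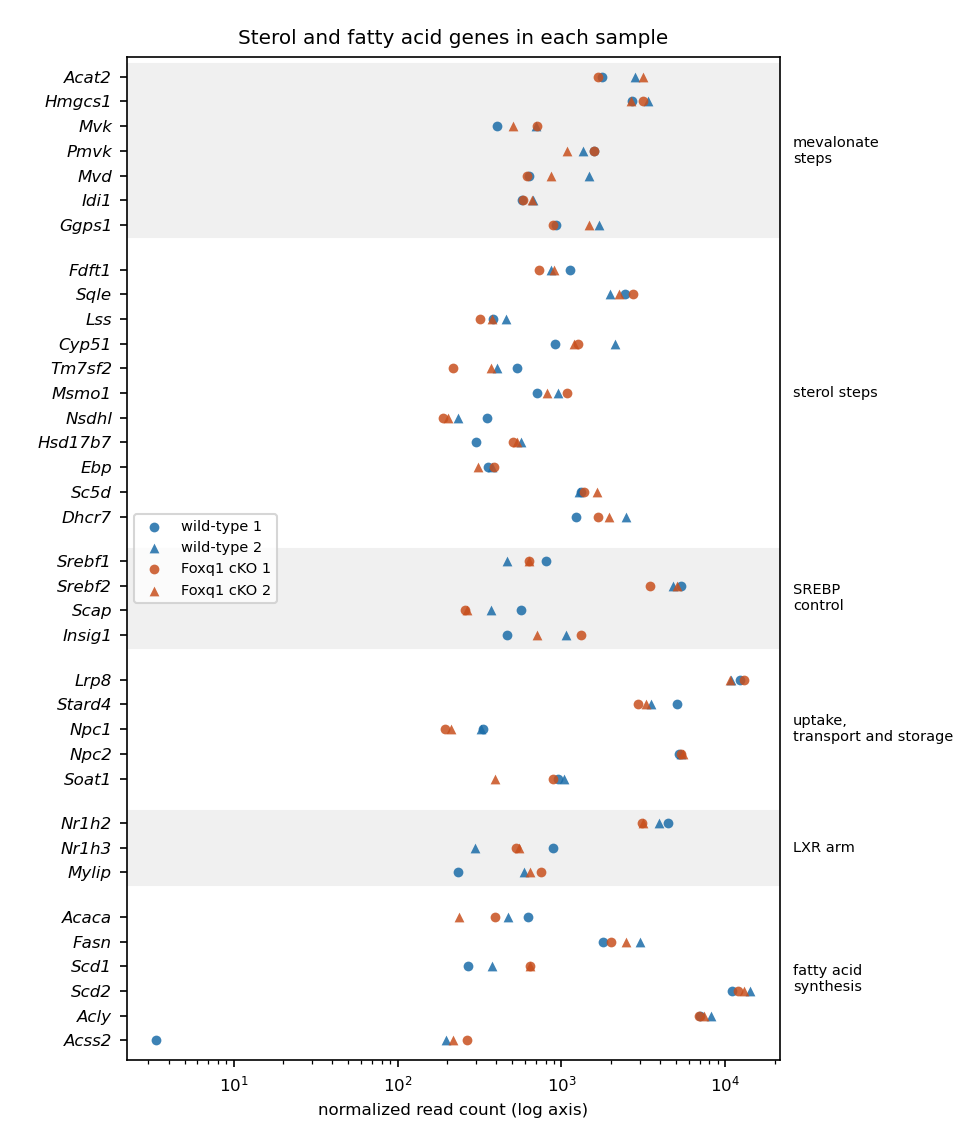
Normalized read count (horizontal log axis) of the 36 genes, grouped by role, with 1 point per sample: circles for replicate 1, triangles for replicate 2, blue for wild-type and red for *Foxq1* cKO. Blue and red points interleave for 22 of the 36 genes, and the single point far to the left is *Acss2* in wild-type 1.

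The precision differed widely between members. The 95% interval of the log2 fold change lay within -1 and 1, that is within a factor of 2 either way, for 15 of 36 members (23.1% over all genes). It lay within -0.5 and 0.5 for 4 members (11.1%, against 297 of the 12472 genes tested). These were *Lrp8*, *Npc2*, *Scd2* and *Acly*, which were among the members with the most reads. For the other 21 members a change beyond a factor of 2 in at least 1 direction was within the interval, so a p that misses the threshold does not show that the groups were alike. The 2 wild-type samples were further apart from each other than the group means were in 25 of 36 members (69.4%, against 62.4% over all genes).

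**Figure D2:**
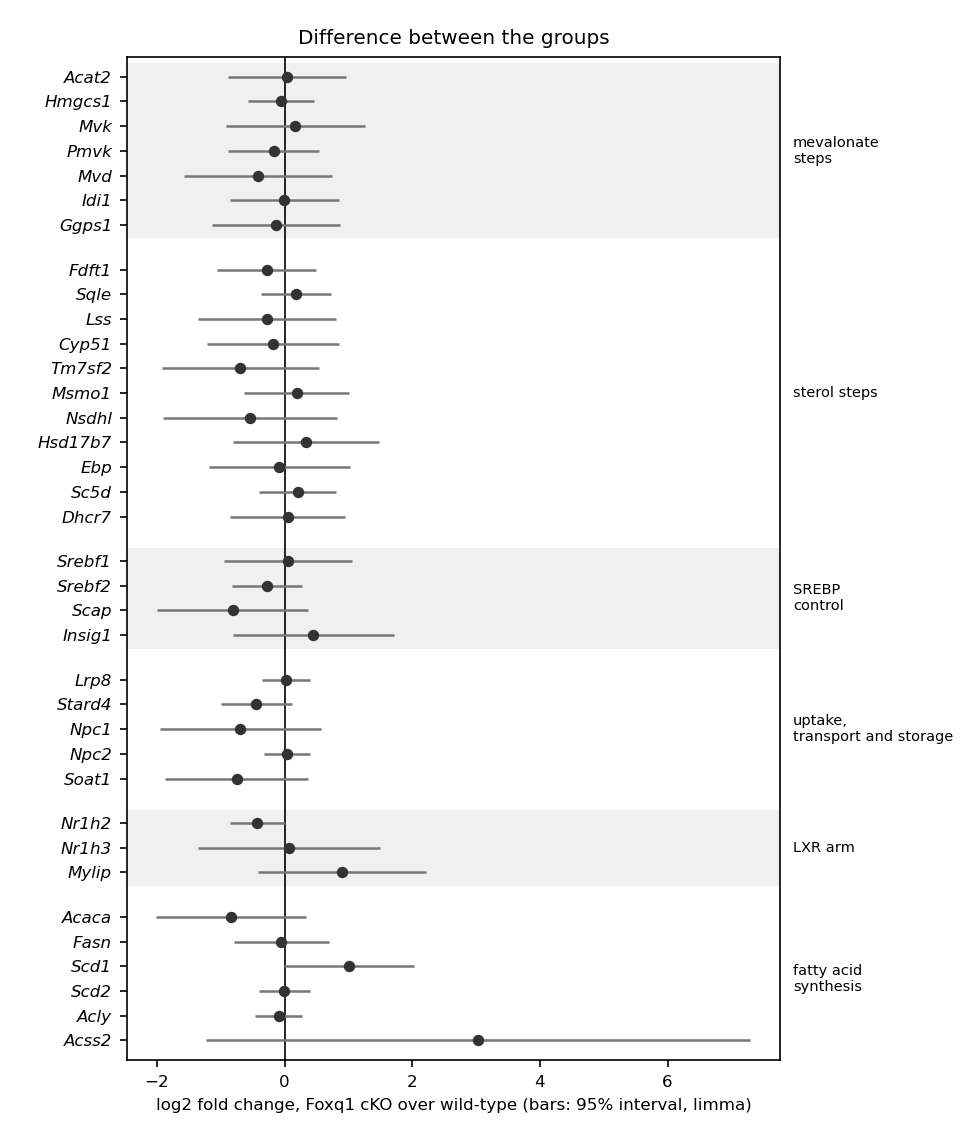
Log2 fold change of *Foxq1* cKO over wild-type (horizontal axis, points) with its 95% interval from limma (bars) for the 36 genes, in the same order of roles. Every interval reaches 0, and the widest, from -1.23 to 7.30, belongs to *Acss2*.

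The mevalonate steps had a median log2 fold change of -0.057, 5 of 7 genes below 0 and none with separate groups (36% over all genes). *Mvk*, mevalonate kinase, had the highest difference of the 7. It stood at 404 and 695 normalized counts in wild-type against 705 and 504 in *Foxq1* cKO samples, a log2 fold change of 0.17 (SE 0.44, 95% interval -0.91 to 1.25, adjusted p = 0.961, limma). *Mvd*, which decarboxylates diphosphomevalonate to isopentenyl diphosphate, had the lowest. It measured 636 and 1466 in wild-type against 615 and 858 in *Foxq1* cKO samples, a log2 fold change of -0.41 (SE 0.47, 95% interval -1.57 to 0.75, adjusted p = 0.900, limma). Wild-type 2 alone was high for *Mvd*, and the log2 fold change was -1.01 without wild-type 1 (limma, unadjusted p = 0.0392) and 0.19 without wild-type 2. With a sample left out the share of all genes at an unadjusted p under 0.05 was 6.62% without wild-type 1, 12.6% without wild-type 2, 2.21% without *Foxq1* cKO 1 and 3.86% without *Foxq1* cKO 2, which is the background for every such p given below.

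The log2 fold changes of the other 5 mevalonate-step genes lay between -0.17 and 0.042. *Hmgcs1*, the HMG-CoA synthase whose promoter carries the SRE above, measured 2696 and 3366 normalized counts in wild-type against 3151 and 2661 in *Foxq1* cKO samples. *Acat2*, the cytosolic thiolase that makes acetoacetyl-CoA, measured 1765 and 2813 against 1679 and 3134, so that replicate 2 was the higher sample in both groups. *Ggps1*, which makes geranylgeranyl diphosphate for protein prenylation, showed the same order with 931 and 1699 against 891 and 1470.0. *Idi1*, the isomerase of isopentenyl diphosphate, stood closest to 0 of the 7, at 575 and 671 against 585 and 657 (log2 fold change -0.0026, 95% interval -0.86 to 0.85). *Pmvk*, phosphomevalonate kinase, had 1577 and 1354 against 1572 and 1076, with *Foxq1* cKO 2 lowest. None of the 5 separated the genotypes. Exons of *Hmgcs1*, *Idi1* and *Ggps1* overlap a gene on the opposite strand (*Gm48342*, *Gm48574* and *Arid4b*), and reads of these neighbours may be included.

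The sterol steps had a median log2 fold change of -0.079, with 6 of 11 genes below 0, 3 lower and 1 higher with separate groups. That share of separate groups, 36.4%, was near the 36% over all genes. *Tm7sf2*, a sterol 14-reductase, was the lowest. It had 532 and 405 normalized counts in wild-type against 219 and 373 in *Foxq1* cKO samples, a log2 fold change of -0.70 (SE 0.50, 95% interval -1.93 to 0.53, adjusted p = 0.865, limma). *Hsd17b7*, the 3-ketosteroid reductase of the demethylation steps, was the highest, with 300.0 and 563 in wild-type against 504 and 536 in *Foxq1* cKO samples (log2 fold change 0.34, SE 0.47, 95% interval -0.81 to 1.49, adjusted p = 0.917, limma). Wild-type 1 alone was low for *Hsd17b7*, and without it the log2 fold change was -0.12. The log2 fold change of *Tm7sf2* was -0.31 without *Foxq1* cKO 1 and -1.08 without *Foxq1* cKO 2. *Tm7sf2* shares exonic bases on the same strand with *Vps51*, and reads there could belong to either gene.

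*Nsdhl*, which works in the same demethylation steps as *Hsd17b7*, had 351 and 233 normalized counts in wild-type against 191 and 202 in *Foxq1* cKO samples (log2 fold change -0.54, 95% interval -1.90 to 0.82). *Lss*, which closes squalene epoxide to lanosterol, had 383 and 462 against 318 and 378, so that the groups were narrowly separate (log2 fold change -0.28). *Sc5d*, the lathosterol desaturase near the end of the pathway, had 1316 and 1281 against 1378 and 1637 and was the only sterol-step gene above wild-type in both *Foxq1* cKO samples (log2 fold change 0.21, 95% interval -0.39 to 0.81). Without wild-type 1 the log2 fold change of *Nsdhl* was -0.25.

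*Sqle*, the squalene epoxidase that is a rate-limiting step of the sterol branch, had 2426 and 1989.9 in wild-type against 2737 and 2250.2 in *Foxq1* cKO samples, with overlapping groups (log2 fold change 0.18, 95% interval -0.37 to 0.73). *Fdft1*, squalene synthase, had 1127 and 862 against 727 and 903. Wild-type 1 was its highest sample, and exons of *Fdft1* overlap *Ctsb* on the opposite strand. *Cyp51*, the lanosterol demethylase, had 914 and 2109 against 1259.6 and 1195, with wild-type 2 far above the rest. Its log2 fold change of -0.18 became -0.78 without wild-type 1 (limma, unadjusted p = 0.0375) and 0.42 without wild-type 2. *Dhcr7*, the last enzyme of one branch, likewise had its lowest and highest values both in wild-type, at 1234 and 2494 against 1681 and 1955. *Msmo1*, the methylsterol oxidase, had 707 and 958 against 1085 and 814. *Ebp*, the sterol isomerase, had 358 and 377 against 389 and 311, and both genes overlapped between the genotypes.

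How many of the 18 synthesis genes lay below 0 depended on which wild-type sample was kept. Without wild-type 1, 16 of 18 had a log2 fold change below 0, all 7 of the mevalonate steps among them. Without wild-type 2, 6 of 18 were below 0, 1 of them in the mevalonate steps. Their median moved from -0.22 to 0.15, whereas the share of all genes below 0 was 51.8% without wild-type 1 and 51.5% without wild-type 2. Wild-type 1 was below wild-type 2 in 6 of 7 mevalonate-step genes and in 6 of 11 sterol-step genes. Over all 36 members this held for 21 (58.3%, against 49.2% of all genes). Leaving out *Foxq1* cKO 1 or *Foxq1* cKO 2 left 11 and 10 of the 18 below 0. *Fdft1*, *Sqle*, *Lss*, *Tm7sf2*, *Nsdhl* and *Sc5d* kept their sign whichever sample was left out.

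**Figure D3:**
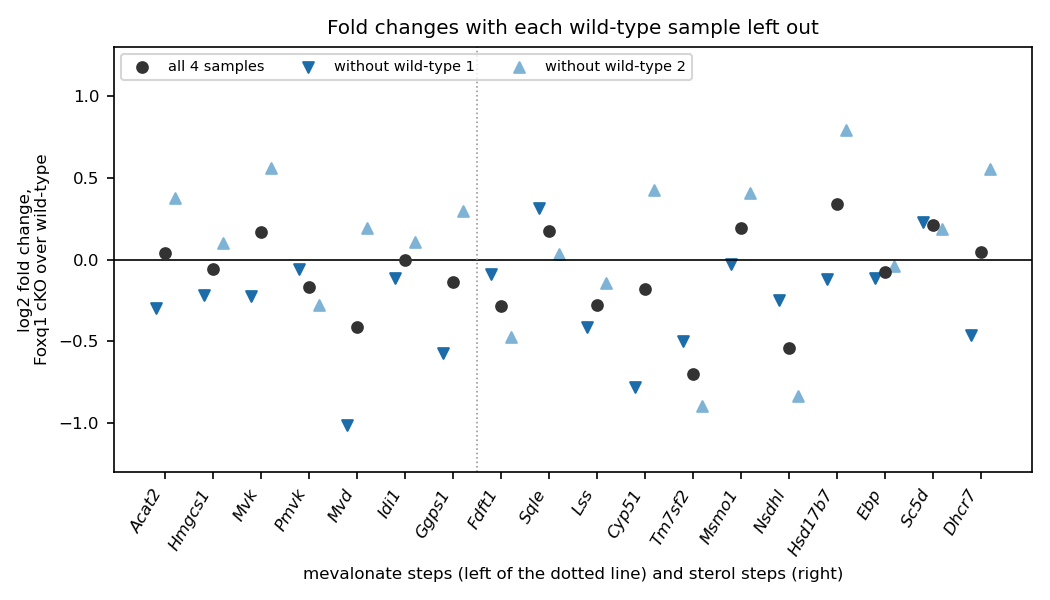
Log2 fold change (vertical axis) of the 18 mevalonate and sterol enzymes from all 4 samples (black circles), without wild-type 1 (dark blue triangles pointing down) and without wild-type 2 (light blue triangles pointing up). For 16 of 18 genes the dark blue triangle lies below 0, and for 6 of 18 the light blue one does.

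The 4 genes of SREBP control had a median log2 fold change of -0.11, 2 on either side of 0. *Scap*, the sterol sensor that escorts SREBP to the Golgi, was the lowest. It alone of the 4 had separate groups, a share of 25% against 36% over all genes. It had 568 and 369.9 normalized counts in wild-type against 258 and 263 in *Foxq1* cKO samples, a log2 fold change of -0.81 (SE 0.48, 95% interval -1.99 to 0.37, adjusted p = 0.857, limma). *Insig1*, which retains SCAP and is itself an SREBP target, was the highest, with 468 and 1059.8 against 1311 and 710.1 and a log2 fold change of 0.45 (SE 0.52, 95% interval -0.81 to 1.71, adjusted p = 0.898, limma). The genotypes overlapped for *Insig1*, wild-type 1 being lowest, and without wild-type 1 its log2 fold change was -0.14. The log2 fold change of *Scap* was -0.50 without wild-type 1 and -1.12 without wild-type 2. *Scap* shares exonic bases with *5830462I19Rik* on the opposite strand.

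*Srebf2*, which encodes SREBP-2, the main factor of cholesterol genes, had 5399.5 and 4802 in wild-type against 3468 and 5102 in *Foxq1* cKO samples (log2 fold change -0.28, 95% interval -0.83 to 0.28). Only *Foxq1* cKO 1 was low. *Srebf1*, which encodes SREBP-1, tied more to fatty acid genes, had 806 and 463 against 636 and 634, so that both *Foxq1* cKO values fell between the wild-type ones (log2 fold change 0.055, 95% interval -0.95 to 1.06). Exons of *Srebf1* overlap *Rai1* on the opposite strand. Per kilobase of exon, *Srebf2* exceeded *Srebf1* in every sample, by 4.28 to 8.14 times.

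Uptake, transport and storage genes had a median log2 fold change of -0.44, with 3 of 5 genes lower and 1 higher with separate groups. Over all genes tested 36% had separate groups, 18% in each direction. The median was -0.16 without *Foxq1* cKO 2, -0.18 without wild-type 1 and -0.70 without wild-type 2. *Soat1*, which esterifies cholesterol for storage, was the lowest, at 958 and 1033 normalized counts in wild-type against 892 and 391 in *Foxq1* cKO samples (log2 fold change -0.75, SE 0.46, 95% interval -1.88 to 0.37, adjusted p = 0.857, limma). *Foxq1* cKO 2 carried that difference, which was -0.16 without it and -1.35 without *Foxq1* cKO 1 (limma, unadjusted p = 0.0346). *Npc2*, the soluble carrier of cholesterol in the lysosome, was the highest and among the most evenly measured genes, at 5244 and 5382 against 5395 and 5481 (log2 fold change 0.034, SE 0.15, 95% interval -0.33 to 0.39, adjusted p = 0.979, limma).

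*Npc1*, the membrane protein that takes cholesterol over from NPC2, had 333 and 322 in wild-type against 194 and 212 in *Foxq1* cKO samples (log2 fold change -0.69, 95% interval -1.95 to 0.56, limma, unadjusted p = 0.227). Both samples of each genotype lay close together, and tested alone without variance shared across genes *Npc1* had an unadjusted p of 0.00941. Its exons overlap *Gm15956* and *Rmc1* on the opposite strand. *Stard4*, which carries sterol through the cytosol, had 5043 and 3523 against 2934 and 3282 (log2 fold change -0.44, SE 0.23, adjusted p = 0.857, limma). Wild-type 1 was its highest sample, and the log2 fold change was -0.18 without wild-type 1 and -0.70 without wild-type 2 (limma, unadjusted p = 0.0202). *Lrp8*, a receptor for ApoE and reelin, had 12287 and 10863 against 12935 and 10675, its log2 fold change bounded to -0.35 to 0.39.

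In the LXR arm, *Nr1h2*, which encodes LXRβ, was the lowest gene and had the smallest unadjusted p of all 36 members. It measured 4467 and 3923 normalized counts in wild-type against 3096 and 3136 in *Foxq1* cKO samples, a log2 fold change of -0.43 (SE 0.18, limma, unadjusted p = 0.0507, adjusted p = 0.857). Both *Foxq1* cKO samples lay below both wild-type samples. With all 4 samples its unadjusted p ranged over the alternatives from 0.0455 without moderation to 0.205 with eBayes without a trend (limma), with 0.0956 under quantile normalization. A pseudogene, *Nr1h2-ps*, is annotated and could share reads.

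*Mylip*, an LXR target whose product IDOL marks receptors of the LDL receptor family for degradation, was the highest of the arm, with 233 and 589 against 746 and 639 (log2 fold change 0.89, SE 0.54, 95% interval -0.42 to 2.21, adjusted p = 0.857, limma). Wild-type 1 alone was low, and without it the log2 fold change was 0.23, whereas without wild-type 2 it was 1.56 (limma, unadjusted p = 0.0150). *Nr1h3*, which encodes LXRα, had 882 and 296 against 526 and 551. Its lowest and highest values were both in wild-type, and the interval of its log2 fold change ran from -1.35 to 1.50.

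Among the fatty acid genes, which share acetyl-CoA and SREBP control with the sterol genes, *Acss2* and *Acaca* were the extremes. *Acss2*, which makes acetyl-CoA from acetate, had 3.37 and 196 normalized counts in wild-type against 265 and 217 in *Foxq1* cKO samples, the first resting on 4 reads. Its log2 fold change of 3.03 had an SE of 1.75 (adjusted p = 0.857, limma) and was 0.28 without wild-type 1 and 5.78 without wild-type 2. In both DESeq2 and edgeR, with all 4 samples, it was 1.27. Wild-type 2 and both *Foxq1* cKO samples were close to each other, so that 1 library set the difference. Exons of *Acss2* also overlap *Acss2os*, *Ggt7* and *Gss* on the opposite strand.

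*Acaca*, acetyl-CoA carboxylase 1, the committed step of fatty acid synthesis, had 626 and 472 in wild-type against 394 and 236 in *Foxq1* cKO samples (log2 fold change -0.83, SE 0.48, 95% interval -2.01 to 0.34, adjusted p = 0.857, limma). The groups were separate, with *Foxq1* cKO 2 lowest, and the log2 fold change was -0.46 without it. *Scd1*, a desaturase that makes oleate, was singled out after its values were seen. It had 269.6 and 375 in wild-type against 643 and 639 in *Foxq1* cKO samples, a log2 fold change of 1.01 (SE 0.42, 95% interval -0.013 to 2.03, limma, unadjusted p = 0.0522, adjusted p = 0.857). DESeq2 called it at an unadjusted p of 0.0461, with an adjusted p of 0.766. Its log2 fold change was 0.77 without wild-type 1 and 1.25 without wild-type 2 (limma, unadjusted p = 0.0349).

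The other fatty acid genes had overlapping groups. *Scd2*, the desaturase paralog that is prominent in brain, had 11019 and 14216 against 11956 and 13065 (log2 fold change -0.0020, 95% interval -0.40 to 0.39). *Acly*, which releases acetyl-CoA from citrate for both fatty acids and sterols, had 7037 and 8209 against 6916 and 7376 (log2 fold change -0.090, 95% interval -0.46 to 0.28). *Fasn*, fatty acid synthase, had 1783 and 2999 against 2001 and 2492, both *Foxq1* cKO values falling between the wild-type ones. *Scd1* and *Scd2* are close paralogs, and reads that fit both could have been split or dropped in counting.

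Levels can be set against each other per kilobase of exon (the merged exons of GENCODE M21 on GRCm38). In wild-type brain ECs the highest mean levels of the members were those of *Scd2* at 2309 normalized counts per kilobase, *Acly* at 1444, *Nr1h2* at 1251, *Lrp8* at 1101 and *Npc2* at 977. The lowest were *Acss2* at 9.83, *Npc1* at 28.9 and *Acaca* at 32.1. Within the synthesis pathway *Acat2* led with 899.9 and *Lss* came last with 39.1. These lengths merge the exons of all annotated transcripts of a gene, up to 17.1 kilobases for *Acaca*, and may exceed the transcripts present here. They also come from an annotation on another build than the one named for the counting. The order within a pathway and ratios per kilobase between genes are therefore approximate.

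Around the members, 82 further genes of the same pathways were listed, of which 68 were in the table and all 68 were tested. No adjusted p was under 0.05 in limma, DESeq2 or edgeR. At an unadjusted p under 0.05 in limma, 1 was higher and 4 were lower, against backgrounds of 2.17% and 3.05%. DESeq2 called 4 and edgeR 5 of the 68 at that level, where 6.49% and 4.92% of all genes were called. Their median log2 fold change was -0.14, with 40 of 68 below 0. By list, 1 of 10 prenyl genes, 3 of 9 lipoprotein uptake genes and 1 of 24 fatty acid genes were among the 5, and none of 11 SREBP processing and degradation genes, 13 efflux and transfer genes or 1 oxysterol gene.

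Of the 4 lower genes, 3 were on the lipoprotein uptake list. *Apoe*, the main apolipoprotein of the brain and a ligand of LRP8, had 21224 and 19388 normalized counts in wild-type against 14576 and 12318 in *Foxq1* cKO samples, a log2 fold change of -0.60 (SE 0.13, 95% interval -0.93 to -0.27, limma, unadjusted p = 0.00425, adjusted p = 0.857). *Apoe* had the smallest unadjusted p of all 104 pathway genes and kept an unadjusted p under 0.05 with each sample left out. It is a transcript of astroglia and microglia more than of endothelium. Of 10 neural progenitor and astroglia markers 9 were listed, *Eomes* being the exception, with sums of 20846 to 21178 in wild-type and 17176 to 17245 in *Foxq1* cKO samples. Singly, *Aqp4* was higher in both *Foxq1* cKO samples and *Sox2*, *Fabp7* and *Emx2* overlapped. *Pax6*, *Hes5*, *Slc1a3*, *Aldoc* and *Gfap* were lower in both. All 10 microglia and macrophage markers were listed, with sums of 10938 to 13473 and 8337 to 9521. Among them *C1qc* was higher in both *Foxq1* cKO samples, *Cx3cr1*, *Csf1r* and *C1qb* were lower in both, and the others overlapped. The part of these cells in the *Apoe* difference was not tested.

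*Gpihbp1*, which anchors lipoprotein lipase to capillary endothelium, had 362 and 212 in wild-type against 49.0 and 42.7 in *Foxq1* cKO samples, a log2 fold change of -2.57 (SE 0.73, 95% interval -4.34 to -0.80, limma, unadjusted p = 0.0118, adjusted p = 0.857). Without wild-type 1 its unadjusted p was 0.0525 (limma, log2 fold change -2.19). *Scarb1*, the scavenger receptor SR-B1 that exchanges cholesterol with lipoproteins, had 10508 and 9827 against 7832 and 8141, a log2 fold change of -0.35 (SE 0.13, limma, unadjusted p = 0.0374, adjusted p = 0.857). The groups were separate, and with any 1 sample left out the unadjusted p of *Scarb1* was 0.0625 or more. *Gpihbp1* and *Scarb1* are expressed by endothelium, and the summed endothelial markers given above were also lower in both *Foxq1* cKO samples. *Cldn5* and *Slc2a1* made up most of that sum. Singly, *Cdh5* was higher in both *Foxq1* cKO samples (4769 and 4803 against 4570 and 4269 in wild-type). *Kdr*, *Tek*, *Esam* and *Slco1a4* overlapped, and the other endothelial markers were lower in both *Foxq1* cKO samples. The part of endothelial content in the *Gpihbp1* and *Scarb1* differences was not tested.

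*Me1*, malic enzyme, which supplies NADPH for fatty acid synthesis, had 50.6 and 388 against 17.4 and 9.16, a log2 fold change of -3.37 (SE 1.23, limma, unadjusted p = 0.0329, adjusted p = 0.857). Wild-type 2 stood far above wild-type 1, and without wild-type 2 the log2 fold change was -1.91 (limma, unadjusted p = 0.178). Without either *Foxq1* cKO sample the unadjusted p of *Me1* was 0.0731 or more. *Pggt1b*, a subunit of the enzyme that attaches geranylgeranyl groups to small GTPases, was the 1 higher gene. It had 1229 and 1689.8 in wild-type against 2206 and 2306 in *Foxq1* cKO samples, a log2 fold change of 0.65 (SE 0.25, limma, unadjusted p = 0.0422, adjusted p = 0.857), and its unadjusted p was 0.129 or more without wild-type 1 or either *Foxq1* cKO sample. With limma run without a variance trend, the unadjusted p was 0.116 for *Pggt1b*, 0.110 for *Apoe* and 0.275 for *Scarb1*.

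**Figure D4:**
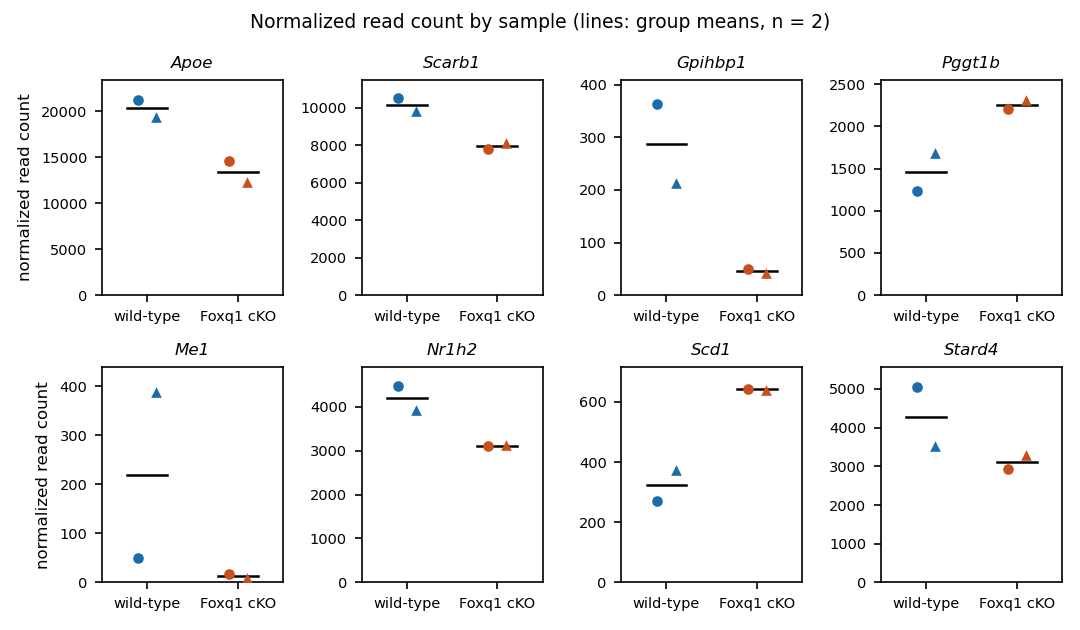
Normalized read count (vertical axes, each from 0) in each sample for the 5 further pathway genes with an unadjusted p under 0.05 and for *Nr1h2*, *Scd1* and *Stard4*; lines are means of 2 samples per group. In all 8 panels both *Foxq1* cKO points lie on the same side of both wild-type points, above them for *Pggt1b* and *Scd1* and below them for the others. *Nr1h2*, *Scd1* and *Stard4* had the smallest unadjusted p of the members, so this separation largely follows from the choice of genes. Over all genes tested, 36% had separate groups.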

How the data were processed

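The authors deposited 1 table of a normalized signal per gene for 4 samples. Within 0.01 reads, all values were integer multiples of a step particular to the sample, so the signal was read counts divided by a size factor (0.919 to 1.19). The submitters' processing notes list Bowtie2 2.2.3, TopHat2 2.0.12, HTSeq 0.6.0 and the build mm9, with no role or settings. The results of the study describe the libraries as based on Smart-seq2, so reads are not independent molecules, and intervals cover the spread between samples. The table's 1207361 lines repeat each gene and were reduced to 12693 symbols, 8 of which had 2 identifiers.

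The 37 members, their roles and the lists of further genes and markers were chosen with earlier results of these data known. Groups came from the sample labels. The main test was unpaired, with limma 3.58.1 (lmFit, eBayes with a trend; R 4.3.3). It used log2 of the signal plus a pseudocount of 1 and the 12472 genes whose mean reached 10, with Benjamini-Hochberg adjustment over all of them. An unadjusted p of 0.05 was the level for describing members. The pseudocount draws fold changes of low genes towards 0, but on this scale they could also exceed those of DESeq2 and edgeR, as for *Acss2*. With 2 samples against 2 an exact permutation test cannot go below p = 0.333, so none was used. DESeq2 1.42.0 and edgeR 4.0.16 (quasi-likelihood, TMM) on the recovered reads were alternatives, beside pseudocounts of 0.1 and 5, eBayes without a trend, no moderation, TMM scaling, quantile normalization, no filter, a minimum mean of 50, a replicate block and each sample left out. A lone sample is then assumed to vary like the other group. The scripts were tested on simulated data. In each role the genes with the highest and lowest difference were named in full, and of the further lists every gene with an unadjusted p under 0.05.

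Exon lengths and overlaps came from GENCODE M21 and promoters from RefSeq, both on GRCm38, matched by symbol. Tables and plots were made with pandas 2.3.3 and matplotlib 3.10.9 under Python 3.11.15.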

Additional observations from a re-analysis of the deposited data

How the results depend on the processing

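With all 4 samples, 381 of 396 member results over 11 alternatives kept their direction and their side of an unadjusted p of 0.05, 8 passed it and 7 changed sign. The count of members at that level, 0 in limma with all choices as reported, was 1 with a pseudocount of 5, no filter, a minimum mean of 50, TMM scaling, eBayes without a trend and DESeq2, 2 without moderation and 0 under the others. The share of all genes at that level was 5.19% to 6.49% under these 7 alternatives, where 1 and 2 of 36 are shares of 2.78% and 5.56%. No alternative gave a member an adjusted p under 0.05. The count of further pathway genes, 5, was 2 with eBayes without a trend. *Foxq1* had a log2 fold change of -4.47 and, without moderation in limma, an unadjusted p of 0.0649. In DESeq2 its adjusted p was 0.00854 and in edgeR 0.940. The sign changes were *Hmgcs1* 0.015, *Scd2* 0.12 and *Acly* 0.0057 under quantile normalization, where the median of the members was 0.0020, and *Dhcr7* -0.036 and -0.032 and *Nr1h3* -0.13 and -0.13 in DESeq2 and edgeR; the cause was not tested. Replicate numbers are shared between the groups, but same-numbered samples did not deviate together (correlation over genes 0.0325), so the number was not taken as a pairing. With the replicate block 0 members and 6 further pathway genes were at that level. Leaving out 1 sample in turn gave 0 to 4 members and 2 to 11 further pathway genes, the highest counts both without wild-type 2, where 12.6% of all genes were at that level against 2.21% to 6.62% in the other 3 fits. They also gave a median of the members from -0.19 to 0.043 and *Foxq1* from -5.66 to -3.28. Over these 4 fits 20 members changed sign at least once, with log2 fold changes ranging for *Acat2* from -0.41 to 0.49, *Hmgcs1* from -0.22 to 0.10, *Mvk* from -0.22 to 0.56, *Pmvk* from -0.44 to 0.11, *Mvd* from -1.01 to 0.19, *Idi1* from -0.11 to 0.11, *Ggps1* from -0.57 to 0.30, *Cyp51* from -0.78 to 0.42, *Msmo1* from -0.028 to 0.41, *Hsd17b7* from -0.12 to 0.79, *Ebp* from -0.24 to 0.081, *Dhcr7* from -0.46 to 0.56, *Srebf1* from -0.34 to 0.46, *Srebf2* from -0.55 to 0.0027, *Insig1* from -0.14 to 1.04, *Lrp8* from -0.11 to 0.16, *Nr1h3* from -0.71 to 0.86, *Fasn* from -0.43 to 0.32, *Scd2* from -0.19 to 0.18 and *Acly* from -0.20 to 0.022. With SEs near 0.41, changes of a member below a factor of 2 were mostly not detectable at this number of samples.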

Other observations

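Ratios of 6 pairs of paralogs or partners per kilobase of exon were computed within each sample, chosen with the members' values known and not tested. In 2 of the 6 the groups were separate, and these carry the values of *Scd1* and *Npc1* already given. *Scd2* exceeded *Scd1* by 36.6 and 34.0 times in wild-type 1 and 2 and by 16.6 and 18.3 times in *Foxq1* cKO 1 and 2. *Npc2* exceeded *Npc1* by 32.8 and 34.8 times in the wild-type and 57.9 and 53.9 times in the *Foxq1* cKO samples. The other 4 overlapped. The ratio of *Nr1h2* to *Nr1h3* was 3.80 and 9.93 in wild-type against 4.42 and 4.27 in *Foxq1* cKO samples, and that of *Srebf2* to *Srebf1* was 5.25 and 8.14 against 4.28 and 6.31. The ratio of *Acaca* to *Acacb*, the mitochondrial carboxylase, was 0.775 and 0.824 against 2.24 and 0.360, and that of *Insig2* to *Insig1* was 1.15 and 0.563 against 0.325 and 0.661.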
